A study of Mus musculus with 14 samples.

Results

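The bin pairs described here link the 2 sides of a contact boundary on mouse chromosome 16, between Cip2a and Myh15, over distances of 50 to 1000 kb. The boundary is the 10 kb bin from 49020001 to 49030000 (mm10), just past the end of Cip2a. A pair counted as spanning when one bin started at or before 49010001, on the Cip2a side, and the other at or after 49030001, on the Myh15 side. There were 4944 such pairs among the 46320 bin pairs of the interval in this distance range. Another 41184 pairs lay on one side and served as the non-spanning pairs, and 192 pairs that included the boundary bin itself were counted in neither class. The boundary was chosen from these same 2 matrices, as the deepest minimum of local contact in both, so a low contact across it is a description and carries no test.

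The data were 2 contact matrices, one from mouse embryonic stem cells (mESC) after 2 days of auxin and one from untreated mESC, each with its replicates already combined by the authors. Auxin is a plant hormone that triggers the degradation of a tagged protein in cells engineered for it. The study set out to find sequences on the same chromosome that control DNA replication, and 14 Capture Hi-C samples in 10 groups are labelled: mESC, neural precursor cells (NPC), and mESC with the changes named 100k.del, 145k.del, 18k.del, 680kinv, abc.del, ab.del, bc.del and c.del. All come from cas/129 hybrid cells, with mESC kept in 2i and LIF. No label names an auxin-treated or untreated sample, the tagged protein or its line, so no labelled group entered a comparison. The matrices are called here by their deposited names, and the sources used here do not say if the libraries behind them were captured. They hold contacts and no expression values, so the named cell type could not be checked against marker genes.

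In Hi-C, neighbouring DNA ends inside the nucleus are joined to each other, and the read pairs that link a pair of regions count how often these meet. Chromosomes fold into domains whose sequences meet each other more often than they meet sequences of the next domain, and the position where contact drops is called a boundary. In mammals many such boundaries depend on the DNA-binding protein CTCF and on cohesin, the ring complex that extrudes loops, while contacts over longer distances also follow the separation of active and inactive chromatin. Contact falls steeply with distance, so every value below is distance-corrected: the contact of each bin pair was divided by the mean contact of all pairs at that distance in the same matrix and averaged, and a value of 1 is the average of the interval.

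Cip2a and Myh15 are the genes next to the boundary, and their promoter windows lie on its 2 sides, outside the boundary bin. The sequence of the boundary bin was not read, so the windows describe these 2 promoters and not the boundary. The Cip2a window, on the plus strand at chr16:48993938-48994237, and the Myh15 window, on the plus strand at chr16:49057150-49057449, are each 300 bases of the RefSeq annotation of GRCm38.p6, whose coordinates are those of mm10, with the dinucleotide CG in capitals.
Cip2a: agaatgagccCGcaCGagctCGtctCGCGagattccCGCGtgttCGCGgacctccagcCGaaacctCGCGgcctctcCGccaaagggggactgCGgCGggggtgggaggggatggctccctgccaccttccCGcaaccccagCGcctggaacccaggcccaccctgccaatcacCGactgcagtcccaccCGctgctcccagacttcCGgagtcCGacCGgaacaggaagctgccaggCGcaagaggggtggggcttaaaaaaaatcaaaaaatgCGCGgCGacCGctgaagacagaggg
Myh15: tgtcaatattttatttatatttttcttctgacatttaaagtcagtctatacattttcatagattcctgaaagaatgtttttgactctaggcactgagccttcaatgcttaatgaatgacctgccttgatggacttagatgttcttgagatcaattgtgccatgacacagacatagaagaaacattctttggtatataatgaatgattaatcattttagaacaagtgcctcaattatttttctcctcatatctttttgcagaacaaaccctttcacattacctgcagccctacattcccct
The Cip2a window held 27 CG dinucleotides and had a GC content of 65.7%, and 15.5% of 32851 mouse promoter windows had as many CG or more. The Myh15 window held 0 CG at a GC content of 33.7%, which 5.43% of promoter windows shared, against a median of 7 CG. Dzip3, on the other strand, starts so close to Cip2a that their windows overlap by 175 bases. GATC, the cutting site of the enzyme MboI used for the labelled libraries, occurred 0 times in the Cip2a window and 1 time in the Myh15 window, and 48.0% of promoter windows held it (it reads the same on both strands).

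The auxin matrix held 433895 read pairs and the untreated matrix 439849, recovered from the deposited values, and the median bin had 1532 and 1542. In both matrices the same few bins were almost empty, 18 in all with under 100 read pairs, among them 48960001 in Dzip3 with 14 and 14 and 49090001 in Myh15 with 55 and 42. The spanning pairs held 13195 read pairs in the auxin matrix and 10468 in the untreated matrix. No read pair was found in 24.8% of the spanning bin pairs in the auxin matrix and in 34.4% in the untreated matrix, against 14.5% and 15.4% of non-spanning pairs, so means over many bin pairs were used. There was 1 matrix for each condition and no replicate check. Intervals in the text are 95% intervals of counting error only; they do not cover the spread between cultures, and read pairs amplified from 1 molecule are not independent. A change is written as a rise or fall where its interval lies wholly on one side of 0.

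Contact across the boundary was below the average of the interval in both matrices in every distance range, and it was higher in the auxin matrix than in the untreated matrix at longer distances. Over all spanning pairs the distance-corrected contact was 0.604 (0.582 to 0.627) in the auxin matrix and 0.444 (0.429 to 0.460) in the untreated matrix. The log2 ratio of auxin over untreated was 0.44 (0.37 to 0.52). Non-spanning pairs had 1.05 in the auxin matrix and 1.07 in the untreated matrix. At the longer distances a rise was also seen in the read pairs before balancing. Of all read pairs 50 to 1000 kb apart, 5.24% (5.15 to 5.33, exact Clopper-Pearson) crossed the boundary in the auxin matrix and 4.05% (3.98 to 4.13) in the untreated matrix. Spanning pairs made up 10.7% of the bin pairs, mostly at long distances, where read pairs are fewer, so these shares are not distance-corrected. By range from short to long, the auxin shares were 0.820%, 2.27%, 5.03% and 10.9%. The untreated shares were 0.893%, 2.21%, 4.30% and 7.83%, and those of the bin pairs 1.14%, 3.09%, 7.23% and 16.1%. Below 250 kb the intervals of the 2 matrices overlapped.

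At 50 to 100 kb the contact across the boundary was 0.525 (0.461 to 0.641) in the auxin matrix and 0.546 (0.484 to 0.667) in the untreated matrix, from 30 bin pairs with 324 and 387 read pairs. Their log2 ratio of -0.056 (-0.30 to 0.19) did not show a change at this depth. After both matrices were balanced again it was -0.35 (-0.59 to -0.11), lower in the auxin matrix. At 100 to 250 kb the contact was 0.640 (0.587 to 0.710) in the auxin matrix and 0.586 (0.546 to 0.651) in the untreated matrix, and the log2 ratio of 0.13 (-0.03 to 0.28) also included 0.

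Farther apart, contact across the boundary was higher in the auxin matrix. At 250 to 500 kb it was 0.631 (0.600 to 0.664) in the auxin matrix, against 0.542 (0.510 to 0.576) in the untreated matrix, a log2 ratio of 0.22 (0.11 to 0.33). Balancing both matrices again ended this call, with a log2 ratio of 0.039 (-0.09 to 0.17). Balancing again without the almost empty bins gave a smaller rise of 0.13 (0.03 to 0.23). At 500 to 1000 kb it was 0.596 (0.568 to 0.625) in the auxin matrix, against 0.411 (0.393 to 0.430) in the untreated matrix, a log2 ratio of 0.54 (0.44 to 0.63), the largest of the 4 distance ranges. It rested on 3774 bin pairs with 7745 and 5364 read pairs. The non-spanning pairs of that range had 1.08 and 1.11, a log2 ratio of -0.049 (-0.08 to -0.01). At 250 to 500 kb non-spanning pairs had 1.03 and 1.04, a log2 ratio of -0.010 (-0.04 to 0.02). Those within 1 Mb of the boundary on the Cip2a side also rose, with 0.987 and 0.906, a log2 ratio of 0.12 (0.05 to 0.20). Those within 1 Mb on the Myh15 side had 1.04 and 1.07, a log2 ratio of -0.044 (-0.10 to 0.01).

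**Figure D1:**
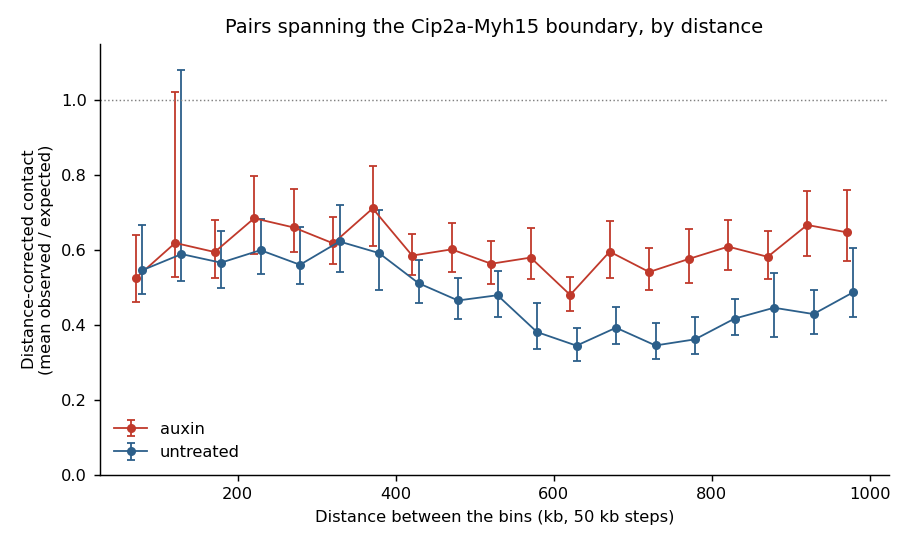
Distance-corrected contact of the pairs spanning the boundary (vertical axis, 1 is the mean of the interval at that distance) against the distance between the 2 bins in steps of 50 kb, in the auxin and the untreated matrix, with 95% counting intervals. The log2 ratio has an interval above 0 in each step from 450 kb on and, below that, only at 250 to 300 kb, with 0.24 (0.03 to 0.44). From 250 kb on the auxin matrix stays between 0.48 and 0.71 and the untreated matrix reaches 0.345.

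Set against non-spanning pairs of the same distance, contact across the boundary in the auxin matrix was 52.2% at 50 to 100 kb, 63.2% at 100 to 250 kb, 61.3% at 250 to 500 kb and 55.3% at 500 to 1000 kb. In the untreated matrix it was 54.3%, 57.8%, 52.3% and 36.9% at the same 4 ranges. In the auxin matrix the 4 shares lay close together, and in the untreated matrix the share beyond 500 kb was the lowest. In steps of 50 kb, both matrices were lowest at 600 to 650 kb, where contact was 0.480 (0.438 to 0.528) in the auxin matrix and 0.345 in the untreated matrix. The largest log2 ratio of a step, 0.67, was at 750 to 800 kb, with 0.576 in the auxin matrix and 0.362 in the untreated matrix. At 300 to 350 kb the step values were 0.618 and 0.623. At 950 to 1000 kb the values were 0.647 and 0.487.

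Just outside the near limit of the distance range, spanning pairs 40 kb apart had 0.770 in the auxin matrix and 0.848 in the untreated matrix, and just inside it pairs 50 kb apart had 0.682 and 0.674. At the far limit, pairs 1000 kb apart had 0.780 (0.241 to 1.67) in the auxin matrix and 0.381 (0.278 to 0.706) in the untreated matrix. Their log2 ratio of 1.03 (-0.34 to 2.41) included 0. Pairs 1010 kb apart had 0.736 and 0.401, and pairs 1020 kb apart 0.589 and 0.566. The nearest bins on either side, 20 kb apart, form 1 pair with 41 and 31 read pairs. Its contact was 0.797 in the auxin matrix and 0.611 in the untreated matrix, and the log2 ratio of 0.38 (-0.29 to 1.06) included 0. The excluded boundary bin had contacts with both sides: at 500 to 1000 kb its contact with the Cip2a side was 0.975 in the auxin matrix and 0.624 in the untreated matrix, a rise of 0.64 on the log2 scale (0.26 to 1.02). With the Myh15 side at the same distances it was 1.03 and 0.816, and that log2 ratio of 0.33 (-0.04 to 0.70) included 0.

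Spanning pairs were then laid out by how far each bin lay from the boundary, in blocks of 100 by 100 kb. Of 55 blocks, 45 had a log2 ratio of at least 0.2, which is 81.8%, while the same blocks drawn around all 335 bin positions of the interval reached it in 31.6% of cases. These positions include the boundary and overlap one another. No block had -0.2 or less, against 26.3% of all such blocks, and without the almost empty bins 1 block had. The median block had 0.585 in the auxin matrix and 0.437 in the untreated matrix. In the untreated matrix 11 blocks were below 0.3, the lowest at 0.194, and in the auxin matrix 0 blocks were, the lowest being 0.381. After balancing again, 34 blocks reached 0.2 and 2 were at -0.2 or less. With the almost empty bins left out as well, the numbers were 37 and 3. The blocks around all positions were not computed after balancing again, so these counts have no background share beside them.

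**Figure D2:**
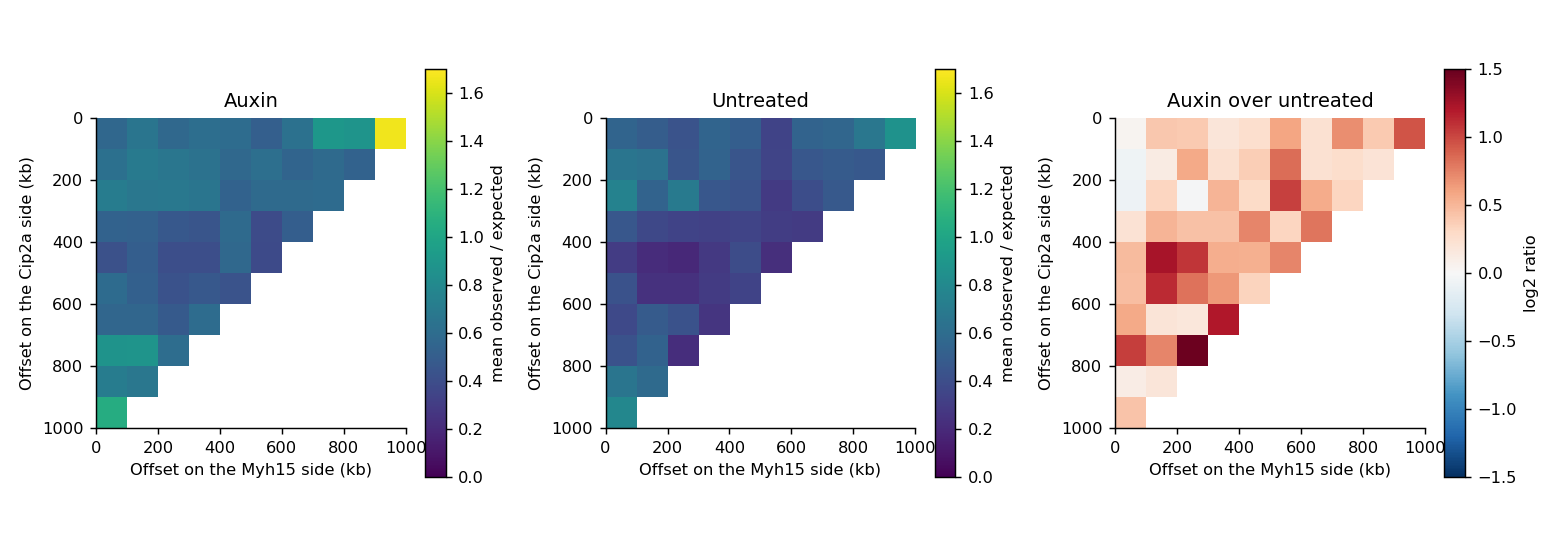
Distance-corrected contact across the boundary in blocks of 100 by 100 kb in the auxin matrix (left) and the untreated matrix (middle), and the log2 ratio of auxin over untreated (right). The axes give the distance of each bin from the boundary in kb, on the Cip2a side and on the Myh15 side. The block nearest the boundary has a log2 ratio of 0.043, and the 7 blocks with a log2 ratio of at least 1 lie farther out.

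Next to the boundary, contact was below the average of the interval in both matrices. Bins 10 to 100 kb from the boundary on both sides had 0.566 in the auxin matrix and 0.549 in the untreated matrix, with 773 and 890 read pairs, and a log2 ratio of 0.043 (-0.18 to 0.27). After balancing again without the almost empty bins this ratio was -0.21 (-0.38 to -0.04), lower in the auxin matrix. Farther out on the Cip2a side but still close on the Myh15 side, bins 210 to 300 kb against 10 to 100 kb had 0.713 and 0.751, a log2 ratio of -0.076 (-0.34 to 0.19).

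Several of the lowest untreated values lay where Cip2a-side bins 410 to 600 kb from the boundary, which cover Morc1, met the Myh15 side. Bins 410 to 500 kb out on the Cip2a side and 110 to 200 kb out on the Myh15 side had 0.510 in the auxin matrix and 0.217 in the untreated matrix, from 178 and 86 read pairs. That log2 ratio was 1.23 (0.52 to 1.95). With bins 210 to 300 kb out on the Myh15 side they had 0.409 and 0.194, a log2 ratio of 1.08 (0.31 to 1.85). Bins 510 to 600 kb out, with the Myh15 side at 110 to 200 kb, had 0.520 in the auxin matrix and 0.240 in the untreated matrix, a log2 ratio of 1.12 (0.75 to 1.49). These blocks hold the Myh15 gene body or the stretch just past it.

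Blocks with large ratios also lay elsewhere. Bins 210 to 300 kb out on the Cip2a side, around Trat1, met bins 510 to 600 kb out on the Myh15 side with 0.585 in the auxin matrix and 0.286 in the untreated matrix, a log2 ratio of 1.03 (0.70 to 1.37). Bins 710 to 800 kb out on the Cip2a side, where Dppa2 and Dppa4 lie, met those 10 to 100 kb out on the Myh15 side with 0.873 and 0.426, a log2 ratio of 1.04 (0.55 to 1.53). The largest ratio, 1.47 (0.18 to 2.76), came from bins 710 to 800 kb and 210 to 300 kb out, with 0.608 in the auxin matrix and 0.219 in the untreated matrix. It rested on 65 and 16 read pairs, and after balancing again it was 1.28 (-0.07 to 2.63), which included 0. The 2 auxin blocks over 1 were at the edge of the range, and the higher of them, 1.66 against 0.867 in the untreated matrix, had an interval of the log2 ratio from -0.49 to 2.37. Without the almost empty bins that block had 0.874 in the auxin matrix and 1.08 in the untreated matrix, and its log2 ratio turned to -0.30.

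By distance from the boundary alone, with all partners across it, the Cip2a side had its smallest contact at 410 to 500 kb in both matrices. There it was 0.458 (0.388 to 0.539) in the auxin matrix and 0.274 (0.227 to 0.335) in the untreated matrix, a log2 ratio of 0.74 (0.39 to 1.09). The largest ratio on that side was at 710 to 800 kb, with 0.828 and 0.431 and a log2 ratio of 0.94 (0.54 to 1.34). At 810 to 900 kb the values were 0.700 and 0.640, and the interval of the log2 ratio, 0.13 (-0.15 to 0.41), included 0. On the Myh15 side the largest ratio with a lower limit above 0 was at 510 to 600 kb, with 0.514 in the auxin matrix and 0.313 in the untreated matrix and a log2 ratio of 0.72 (0.53 to 0.90).

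Pairs across the boundary can be set against pairs of the same bins that reach equally far in the other direction, away from it. Over 250 to 1000 kb, in each of the 10 Cip2a-side blocks and the 9 Myh15-side blocks with at least 40 bin pairs, the auxin value was nearer 0 than the untreated one. That count has no background share beside it, because other positions were not compared in this way. The blocks of the 2 sides draw on the same spanning pairs, and in some blocks the intervals of the matrices overlapped. Cip2a-side bins 10 to 100 kb out had a log2 of across over away of -0.44 (-0.65 to -0.23) in the auxin matrix. In the untreated matrix they had -0.97 (-1.49 to -0.45). On the Cip2a side the log2 ratio of across over away had a median of -0.55 in the auxin matrix and -0.98 in the untreated matrix, and on the Myh15 side of -0.93 and -1.36. Bins 410 to 500 kb out on the Myh15 side, in the gene-poor stretch past Myh15, had an across contact of 0.562 in the auxin matrix and 0.420 in the untreated matrix. Their away contact was 1.22 and 1.57, so the across over away log2 ratio was -1.12 and -1.90. In this block the away contact was lower in the auxin matrix as well as the across contact being higher. Bins 710 to 800 kb out on the Cip2a side, with Dppa2 and Dppa4, had -0.18 (-0.58 to 0.22) in the auxin matrix and -0.85 (-1.20 to -0.50) in the untreated matrix.

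**Figure D3:**
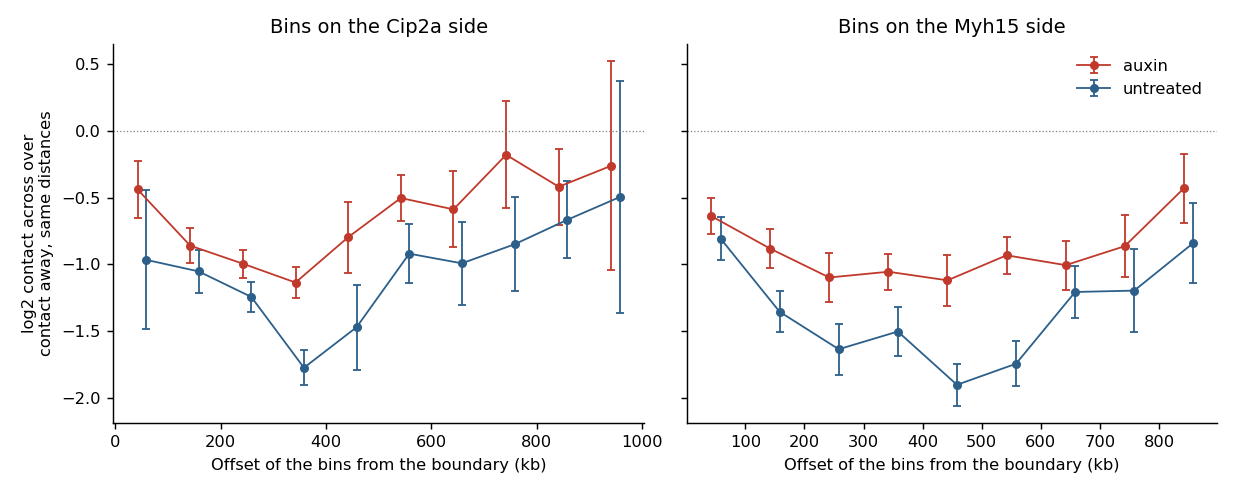
Log2 of contact across the boundary over contact of the same bins, over the same distances, away from it (vertical axis) for blocks of bins by their distance from the boundary in kb (horizontal axis), in the auxin and the untreated matrix, with 95% counting intervals. Below 0 the contact across is lower, and the auxin points lie closer to 0 in every block shown, with overlapping intervals in some blocks.

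Of single bins with at least 30 spanning read pairs in the 2 matrices together, 66 of 85 on the Cip2a side (77.6%) and 67 of 88 on the Myh15 side (76.1%) had a log2 ratio of at least 0.2. Over all bins of the interval with their partners on one side the share was 23.8%. The median bin on the Cip2a side had 0.594 in the auxin matrix and 0.458 in the untreated matrix, and on the Myh15 side 0.607 and 0.434. The Morc1 bin at 48490001 had 0.586 in the auxin matrix and 0.150 in the untreated matrix, from 28 and 8 read pairs. The Morc1 bin at 48550001 had 0.555 and 0.179, from 52 and 22 read pairs. These 2 bins had the largest ratios on their side, with log2 ratios of 1.96 (0.77 to 3.16) and 1.63 (0.80 to 2.47).

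The highest contacts of single bins lay near the far end of the distance range and rested on few partners, except at Cip2a. The last bin of the Cip2a gene, at 49010001 and next to the boundary, had 0.890 (0.774 to 1.02) in the auxin matrix and 0.796 (0.672 to 0.940) in the untreated matrix over 96 partners. On the Cip2a side the bins at 48110001 and 48100001 had the highest auxin values, 1.32 and 1.25, with untreated values of 0.746 and 0.692. The bin at 48120001, with 0.897 in the auxin matrix and 0.884 in the untreated matrix, had the highest untreated value on that side. On the Myh15 side the highest auxin values were at 49780001, with 1.02 against 0.717 in the untreated matrix, and at 49890001 in Cd47. The Cd47 bin had 1.02 in the auxin matrix and 0.397 in the untreated matrix from 22 and 11 read pairs, a log2 ratio of 1.36 (0.29 to 2.43). The bin at 49800001 had 0.763 and 0.331, a log2 ratio of 1.20 (0.49 to 1.92). The highest untreated values were at 49920001, with 0.849 in the auxin matrix and 1.36 in the untreated matrix from 12 and 25 read pairs, and at 49940001, with 1.00 and 0.888.

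There are 14 protein-coding genes within 1 Mb of the boundary, 10 on the Cip2a side and 4 on the Myh15 side, and each was set against all bins across the boundary in range. Of these, 12 had a log2 ratio of at least 0.2, while in 33.3% of 54 comparisons of genes of the interval with one side the ratio reached it. The interval lay above 0 for 12 genes, against 46.3% of the 54, which include the genes counted here. After balancing again it lay above 0 for 7 genes, a count with no background beside it, because the share of the 54 was not computed after balancing again.

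Dppa4 and Dppa2, genes for DNA-binding proteins made in pluripotent and early embryonic cells, had low contact with the far side of the boundary in the untreated matrix. Dppa4 had 0.633 (0.530 to 0.760) in the auxin matrix and 0.322 (0.239 to 0.437) in the untreated matrix, from 148 and 64 read pairs, a log2 ratio of 0.97 (0.50 to 1.44). Dppa2 had 0.598 and 0.227 from 44 and 16 read pairs, a log2 ratio of 1.40 (0.40 to 2.39). Both stayed above 0 after balancing again. Morc1, an ATPase needed in the mouse male germ line to silence transposons, covers 21 bins. It had 0.464 (0.424 to 0.508) in the auxin matrix and 0.284 (0.255 to 0.317) in the untreated matrix, a log2 ratio of 0.71 (0.51 to 0.90).

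Trat1, an adaptor protein of the T cell receptor, had 0.640 in the auxin matrix and 0.514 in the untreated matrix, a log2 ratio of 0.32 (0.19 to 0.44). The 3 resistin-like genes beside it encode small secreted proteins. Retnlg had 0.788 in the auxin matrix and 0.473 in the untreated matrix, a log2 ratio of 0.73 (0.27 to 1.20). Retnlb had 0.613 and 0.479, a log2 ratio of 0.35 (0.06 to 0.65), and Retnla had 0.599 and 0.563, a log2 ratio of 0.089 (-0.26 to 0.44) that included 0. Retnlg and Retnlb did not keep their interval above 0 after balancing again.

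Dzip3, an RNA-binding ubiquitin ligase, and Cip2a, an inhibitor of the phosphatase PP2A, lie next to the boundary and share the bin where both begin. Dzip3 had 0.673 (0.577 to 0.787) in the auxin matrix and 0.482 (0.447 to 0.547) in the untreated matrix, a log2 ratio of 0.48 (0.24 to 0.72). Without the almost empty bins the log2 ratio was 0.37, and after balancing again it was 0.40 (-0.02 to 0.82). Cip2a had 0.842 (0.772 to 0.916) in the auxin matrix and 0.686 (0.632 to 0.744) in the untreated matrix, from 1504 and 1387 read pairs. Its log2 ratio was 0.29 (0.13 to 0.46), and after balancing again it was -0.023 (-0.21 to 0.16). Cip2a had the highest untreated contact of the 14 genes. Gm52257, near the far edge of the range, had only 16 read pairs in the auxin matrix and 3 in the untreated matrix.

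Myh15, a myosin heavy chain gene, had 0.614 (0.582 to 0.649) in the auxin matrix and 0.472 (0.448 to 0.501) in the untreated matrix, from 4708 and 4062 read pairs, a log2 ratio of 0.38 (0.27 to 0.49). Ift57, a component of the transport system of cilia, had 0.634 and 0.474, a log2 ratio of 0.42 (0.07 to 0.77). Cd47, a cell surface protein that restrains engulfment by phagocytes, had 0.829 (0.707 to 1.03) in the auxin matrix and 0.510 (0.418 to 0.715) in the untreated matrix, a log2 ratio of 0.70 (0.35 to 1.05). Gm4802 had 0.508 and 0.514 from 43 and 27 read pairs, with an interval from -1.01 to 0.97. Of these, Myh15 and Cd47 kept an interval above 0 after balancing again.

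**Figure D4:**
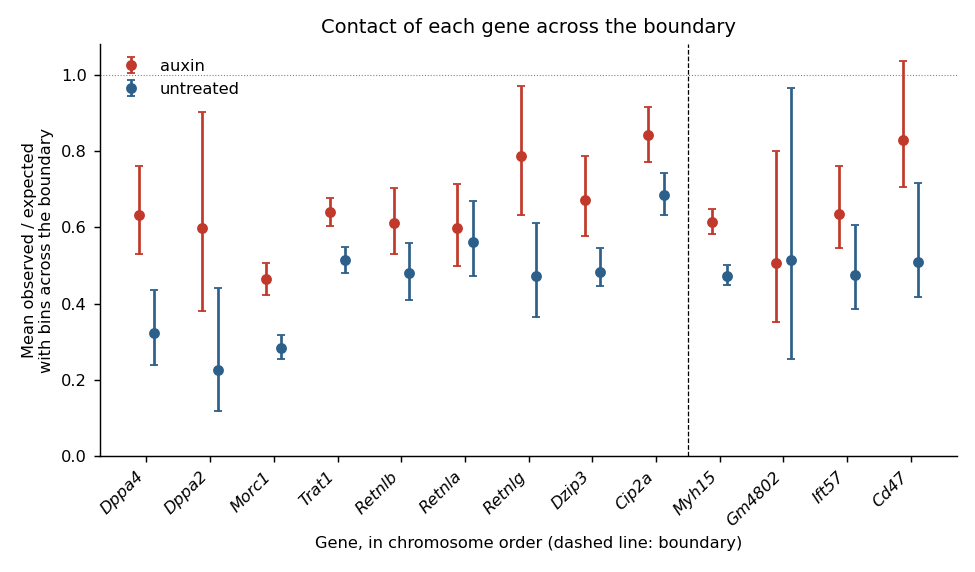
Distance-corrected contact of each gene body with all bins across the boundary 50 to 1000 kb away, in the auxin and the untreated matrix, with 95% counting intervals, in the order of the genes along the chromosome; Gm52257, with few read pairs, is left out. Morc1 has the lowest auxin value at 0.464, and the gap between the matrices is widest at Dppa2, with 0.598 in the auxin matrix and 0.227 in the untreated matrix.

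Of the 26 pairs of genes across the boundary in range, 16 had at least 20 read pairs. Among these, 11 had a log2 ratio of at least 0.2 and 7 had an interval above 0, and over 117 such gene pairs of the interval the shares were 49.6% and 24.8%. No interval lay below 0, which 7.69% of the 117 did. After balancing again 5 intervals lay above 0 and 1 below it, and the shares of the 117 were not computed after balancing again. Dppa4 and Myh15 had 0.744 (0.597 to 0.938) in the auxin matrix and 0.274 (0.191 to 0.425) in the untreated matrix, from 95 and 38 read pairs, a log2 ratio of 1.44 (0.88 to 2.01). Morc1 and Myh15 had 0.490 and 0.290, from 755 and 445 read pairs, a log2 ratio of 0.75 (0.49 to 1.02). Dppa2 and Myh15 had 0.536 and 0.270, from 24 and 11 read pairs, and their interval, -0.08 to 2.05, included 0.

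Genes nearer the boundary had log2 ratios with Myh15 between -0.15 and 0.30, and their difference from the farther genes was not tested. Their bins also lay closer to Myh15, at 50 to 200 kb for Cip2a and 240 to 460 kb for Trat1, against 760 to 910 kb for Dppa4. Nearness to the boundary and distance between the bins therefore cannot be told apart in these pairs. At 500 to 1000 kb, Cip2a-side bins 10 to 100 kb from the boundary had a log2 ratio of 0.55 (0.26 to 0.84) with all partners across it. That value includes almost empty bins and was not computed without them. Without them, the blocks of these bins with the Myh15 side from 510 kb out had 0.58, 0.21, 0.67, 0.37 and -0.30, from near to far. Trat1 and Myh15 had 0.695 in the auxin matrix and 0.708 in the untreated matrix, from 653 and 660 read pairs, a log2 ratio of -0.028 (-0.25 to 0.19). Cip2a and Myh15 had 0.657 and 0.618, from 447 and 491 read pairs, with a log2 ratio of 0.088 (-0.14 to 0.31), which was -0.34 (-0.60 to -0.07) after balancing again. Dzip3 and Myh15 had 0.584 and 0.473, and their log2 ratio of 0.30 (0.05 to 0.56) was -0.017 (-0.18 to 0.15) after balancing again without the almost empty bins. The 3 resistin-like genes with Myh15 had log2 ratios of 0.25 (Retnlb), -0.15 (Retnla) and -0.0084 (Retnlg), each with an interval that included 0.

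The genes nearer the boundary on the Cip2a side were also set against Ift57 and Cd47, farther along the Myh15 side. Dzip3 and Ift57 had 0.673 in the auxin matrix and 0.358 in the untreated matrix, a log2 ratio of 0.91 (0.40 to 1.42), and Dzip3 and Cd47 had 0.827 and 0.499, a log2 ratio of 0.73 (0.26 to 1.20). Cip2a and Cd47 had 1.21 in the auxin matrix and 0.733 in the untreated matrix, from 88 and 68 read pairs, a log2 ratio of 0.72 (0.18 to 1.26) that was 0.43 (-0.11 to 0.97), with 0 in its interval, after balancing again. Trat1 and Ift57 had 0.605 and 0.374, a log2 ratio of 0.70 (0.05 to 1.34). Cip2a and Ift57 had 0.822 and 0.611, and Retnlb and Ift57 had 0.553 and 0.381, both with intervals that included 0. Morc1 and Gm4802 had 0.499 and 0.612 from 13 and 7 read pairs.

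The same kind of pairs was drawn around each of 335 bin positions at least 1 Mb from the ends of the interval. At 500 to 1000 kb the boundary bin ranked 1st from the lowest in the auxin matrix and 4th in the untreated matrix, where the lowest was at 49000001 with 0.406. Its log2 ratio of 0.54 was the 6th highest, and the highest, 0.56, was also at 49000001. Of all positions, 18.8% had a log2 ratio of at least 0.2 in this range, and all 63 of them formed 1 run at offsets of -300 to 320 kb from the boundary. The 150 positions that share no pair with the boundary at this range all lie on the Cip2a side, so they do not cover the whole interval. All 150 had log2 ratios below 0, and their lowest contacts were 0.924 in the auxin matrix and 0.942 in the untreated matrix. At 250 to 500 kb the log2 ratio of the boundary bin, 0.22, ranked 46th from the highest, and the highest, 0.33, was at 48740001 on the Cip2a side. In this range 15.5% of positions reached 0.2, in 1 run of 52 positions at offsets of -350 to 160 kb. Positions that close to the boundary share many of the spanning pairs. Since each matrix is divided by its own mean at each distance, higher values for some pairs go with lower values for others. A run of 62 positions at offsets of -2390 to -1780 kb, all among those 150, had log2 ratios of -0.2 or less at 500 to 1000 kb.

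**Figure D5:**
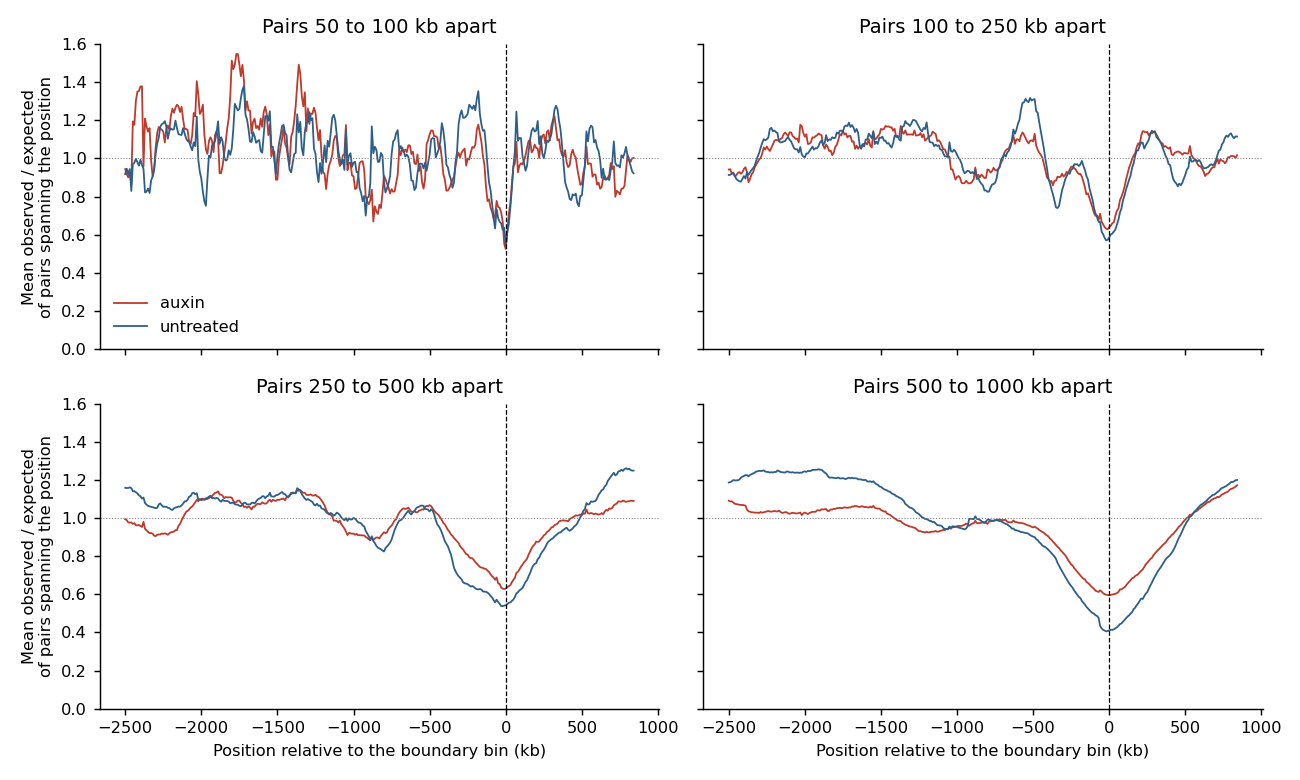
Mean distance-corrected contact (vertical axes) of the pairs that span each of the 335 bin positions, in the auxin and the untreated matrix, in a panel for each of the 4 distance ranges, against the position of the bin relative to the boundary in kb. At 500 to 1000 kb contact is lowest around the boundary in both matrices, 0.596 in the auxin matrix and 0.411 in the untreated matrix at the boundary bin.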

How the data were processed

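Each matrix held contact signal that the authors had deposited as a combined, iteratively corrected table of 535 bins of 10 kb (45520001 to 50870000 on chromosome 16), per the file names; iterative correction (balancing) evens out coverage between bins. Trim Galore and the build mm10 are named in the submitters' processing notes. The sources used here name no aligner, read filter or balancing tool. MboI cutting and capture of 45488946 to 50879849 are given per the labels' protocols.

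A deposited signal value is a read pair count multiplied by 1 factor for each bin. These factors were recovered, and 100% of the nonzero values in both matrices came within 0.02 of a whole number. Bins under 100 read pairs were kept and left out as an alternative. Intervals were gamma intervals for weighted Poisson sums, with normal intervals on the log scale for ratios. They held the bin factors and expected contact fixed. Simulated data checked that known ratios of spanning over non-spanning contact were recovered. They also checked that read pair counts were recovered between bins with 100 or more read pairs. The recovered counts of the almost empty bins were not checked in this way. How often the intervals hold the true value was not measured. With 1 matrix for each condition no test was made and no p-value was computed. Genes were the protein-coding genes of RefSeq (GRCm38.p6) within 1 Mb. Gene pairs with at least 20 read pairs were named, as were the 2 bins on each side with the highest contact in each matrix and the 2 with the largest ratio, among bins with at least 30. The members and lists were chosen with earlier results of these data known. Computation used Python 3.11.15, numpy 2.4.6, scipy 1.17.1 and pandas 2.3.3, with matplotlib 3.10.9 for figures.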

Additional observations from a re-analysis of the deposited data

How the results depend on the processing

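At 500 to 1000 kb the rise in the auxin matrix kept an interval above 0 under every alternative run, with log2 ratios from 0.38 to 0.59; the lowest, 0.38, came from balancing both matrices again without bins under 100 read pairs. At 250 to 500 kb the range was 0.04 to 0.26. There balancing again gave 0.039, with 0 in its interval, and balancing again without those bins gave 0.13 (0.03 to 0.23). At 100 to 250 kb the range was -0.12 to 0.28, the lowest from balancing again without those bins. At 50 to 100 kb it was -0.35 to -0.04, with -0.35 after balancing again. Spanning over non-spanning contact stayed below 0 (log2) under all alternatives run. Leaving out the bins under 100 read pairs gave -0.70 (auxin) and -0.67 (untreated) at 50 to 100 kb and -0.68 (untreated) at 100 to 250 kb. Balancing again gave, for the untreated matrix, -0.56, -0.58, -0.82 and -1.35 at the 4 ranges from short to long. Balancing again without those bins gave -0.62 in the auxin matrix at 50 to 100 kb and -0.31, -0.47, -0.84 and -1.28 in the untreated matrix at the 4 ranges. With both bins at least 50 kb from the boundary, the values were -0.83 (auxin) and -1.11 (untreated) at 100 to 250 kb and -0.95 (auxin) and -1.55 (untreated) at 500 to 1000 kb; no pair was left at 50 to 100 kb. The rise of Cip2a turned to -0.023 after balancing again, and to -0.013 after balancing again without those bins. Blocks at -0.2 or less numbered 1 without those bins, 2 after balancing again and 3 after balancing again without those bins, against 0 as reported. The cause of these shifts was not tested. Alternatives on genes, blocks and balancing without those bins were chosen after seeing the data. Depth limits single blocks and gene pairs, some of which rest on under 50 read pairs a matrix. Distance steps, sums by offset, single bins, mirrored pairs and other positions were computed on the deposited values alone. No paired analysis was possible because the result comes from 1 pooled matrix for each condition.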
